A study of Mus musculus with 6 samples.

Results

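The extracellular matrix of the brain was followed through 10 genes in mouse nucleus accumbens after repeated cocaine. They are the lecticans Acan, Bcan, Ncan and Vcan, the link proteins Hapln1, Hapln2 and Hapln4, the tenascins Tnr and Tnc, and the receptor phosphatase Ptprz1. They were chosen by gene symbol, and each matched a single record, so they make up 10 of the 21540 gene records in the authors' deposited table. All 10 were marked as tested, as were 14959 records in all. RNA sequencing had been done on nucleus accumbens, the ventral striatal station of the reward circuit, from C57BL/6 mice. The cocaine group (3 libraries) had received intraperitoneal cocaine at 20 mg/kg on 7 consecutive days and the saline group (3 libraries) saline on the same schedule, and both belong to the 4 h withdrawal time point per the labels. For the saline libraries the protocol text is that of the cocaine libraries, and grouping followed the treatment label. Animals per library, age and sex are not in the labels.

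In the brain, lecticans are chondroitin sulfate proteoglycans that bind hyaluronan at their N-terminal end and tenascins at their C-terminal end. Link proteins clamp the lectican to the hyaluronan chain, and tenascin-R, a multimer, ties several lecticans together. The densest form of this lattice is the perineuronal net, which surrounds the soma and proximal dendrites of fast-spiking parvalbumin interneurons in many regions. A looser form fills the space around synapses and nodes of Ranvier. Digestion of its chondroitin sulfate chains is known to reopen plasticity in adult cortex, and nets have been studied in memory of drug reward.

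Of the 10 genes, only Tnr changed past the threshold used here, a q-value under 0.05 in the authors' deposited table. Tnr was at 16.2 FPKM (fragments per length of transcript and per library total) in the cocaine group and 14.5 FPKM in the saline group, a rise of 11.6% (log2 fold change 0.16, the authors' deposited p = 0.000225 and q = 0.0262). The other 9 did not pass, with q-values of 0.830 or more. Across all tested records 1.23% passed in either direction, 0.521% as higher and 0.709% as lower in the cocaine group. Before adjustment, a deposited p under 0.05 was reached by 3 genes among the 10, Tnr and Hapln4 as higher and Bcan as lower. Of all tested records 5.76% reached it, 2.02% as higher and 3.74% as lower. The median log2 fold change of the 10 was 0.01, with 5 above and 5 below 0, and that of all tested records was -0.02. For the 8 genes of at least 1 FPKM in either group it was -0.02, with 3 above and 5 below 0. Tested records of that level also had a median of -0.02, and 40.8% of them were above 0.

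The table gives 1 value per group and gene and none per library, so no SD or range stands beside a value, and the read depth is unknown. To give each difference an error, the standard error was calculated that would yield the deposited p-value in a two-sided normal test of the log2 fold change. It is called the implied standard error below, and the 95% interval made from it the implied interval. How the authors' test estimated the spread is not given in the sources used here, so these intervals hold only as far as that normal form does. Any spread between libraries that they carry may be that of technical replicates. In tissue RNA, a lower value can mean fewer cells of a type or less RNA per cell, and these data cannot tell them apart.

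The 10 genes covered a wide range of levels, which FPKM allows to be compared between genes because it is a value per transcript length. Bcan was highest, at 80.6 FPKM in the cocaine group and 83.1 FPKM in the saline group, and stood at rank 966 after cocaine and 933 after saline among the tested records. Ncan followed at 43.0 FPKM after cocaine and 43.7 FPKM after saline, then Ptprz1 at 26.3 FPKM after cocaine and 26.7 FPKM after saline. Below them in both groups came Tnr, Hapln2, Vcan, Hapln4 and Hapln1. Tnc and Acan were below 1 FPKM in both groups, so 8 of the 10 reached that level. Tnr lay above Hapln2 after cocaine (16.2 against 15.6 FPKM) and below it after saline (14.5 against 15.3 FPKM). With no value per library it cannot be said which neighbours in this order differ beyond their spread.

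**Figure D1:**
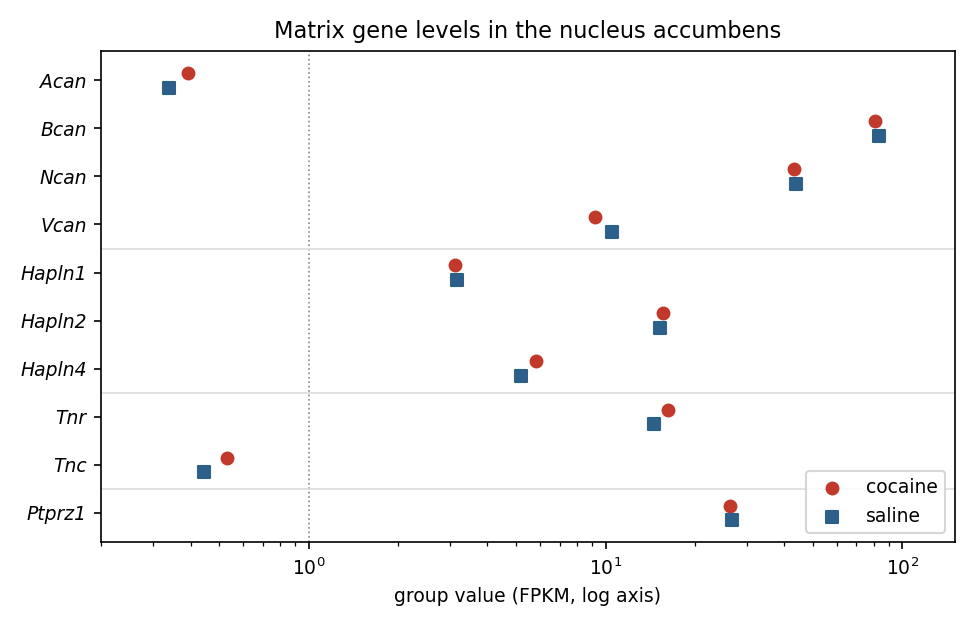
Group value of each of the 10 genes in FPKM on a log axis, with cocaine as circles and saline as squares, 1 value per group and no error available. Rows are grouped as lecticans, link proteins, tenascins and Ptprz1, and the dotted line marks 1 FPKM. The 2 marks of a gene nearly coincide next to the spread between genes, from 0.394 FPKM for Acan to 80.6 FPKM for Bcan after cocaine.

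Among the lecticans, the core proteoglycans of the lattice, none passed the threshold. Bcan (brevican), the short lectican of the adult brain made by glia and neurons and found around synapses, was at 80.6 FPKM after cocaine and 83.1 FPKM after saline. Its log2 fold change was -0.04 with an implied interval of -0.08 to -0.01, and its deposited p of 0.02515 became a q of 0.830. Ncan (neurocan), a neuronal and astrocytic lectican most abundant during development, was at 43.0 FPKM after cocaine and 43.7 FPKM after saline (log2 fold change -0.02, implied interval -0.06 to 0.01, the authors' deposited p = 0.199). The implied intervals of Bcan and Ncan lie within 0.1 of 0 on the log2 scale. They hold under the normal form only and make no allowance for the drift with GC content and length described below. Bcan and Ncan together made up 92.8% of summed lectican FPKM after cocaine and 92.1% after saline.

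Vcan (versican), the large lectican found at nodes of Ranvier and abundant in oligodendrocyte precursors, was at 9.24 FPKM after cocaine and 10.5 FPKM after saline. On the log2 scale that is the largest difference towards lower values among the 10, at -0.18. Yet its p was 0.651 and its implied interval ran from -0.96 to 0.60. A change to 0.512 times or to 1.52 times the saline level would both lie inside it, so for Vcan the table sets only these wide limits. Acan (aggrecan), the lectican most closely tied to perineuronal nets, was at 0.394 FPKM after cocaine and 0.337 FPKM after saline. Its log2 fold change of 0.22 (the authors' deposited p = 0.256, implied interval -0.16 to 0.61) was 0.06 with 1 FPKM added to both values. Acan made up 0.295% of summed lectican FPKM after cocaine and 0.245% after saline.

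Each lectican gene has a link protein gene as its direct protein-coding neighbour, in all 4 pairs of the RefSeq annotation of GRCm38.p6. The pairs are Bcan with Hapln2, Ncan with Hapln4, Vcan with Hapln1 and Acan with Hapln3. In each group the link protein of the most abundant lectican was also the most abundant link protein, Hapln2 at 15.6 FPKM after cocaine and 15.3 FPKM after saline. The link proteins then followed the order of their neighbours, Hapln4 beside Ncan, Hapln1 beside Vcan and Hapln3, at 0.550 FPKM after cocaine and 0.548 FPKM after saline, beside Acan. The signs of the fold changes were shared in 2 of the 4 pairs. Bcan and Ncan had log2 fold changes of -0.04 and -0.02 beside 0.03 for Hapln2 and 0.17 for Hapln4, while Vcan at -0.18 stood beside Hapln1 at -0.03 and Acan at 0.22 beside Hapln3 at 0.0051. With 4 pairs and 1 value per group, neither pattern was tested.

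None of the 3 link proteins passed. Hapln4 (Bral2), the link protein that places brevican at inhibitory synapses on some neurons, was at 5.84 FPKM after cocaine and 5.20 FPKM after saline. Its log2 fold change of 0.17 was as large as that of Tnr, but with an implied interval of 0.02 to 0.31 and a p of 0.0273 its q was 0.865. Hapln2 (Bral1), the oligodendrocyte link protein of nodes of Ranvier, had a log2 fold change of 0.03 with a wide implied interval of -0.36 to 0.43 (the authors' deposited p = 0.867). Hapln1 (cartilage link protein), which is needed for compact perineuronal nets, was at 3.10 FPKM after cocaine and 3.16 FPKM after saline (log2 fold change -0.03, the authors' deposited p = 0.749). Its implied interval of -0.20 to 0.15 corresponds to 0.869 to 1.11 times the saline level. Summed over the 3 genes, link protein FPKM was 18.4% of lectican FPKM after cocaine and 17.2% after saline, a ratio with no error.

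**Figure D2:**
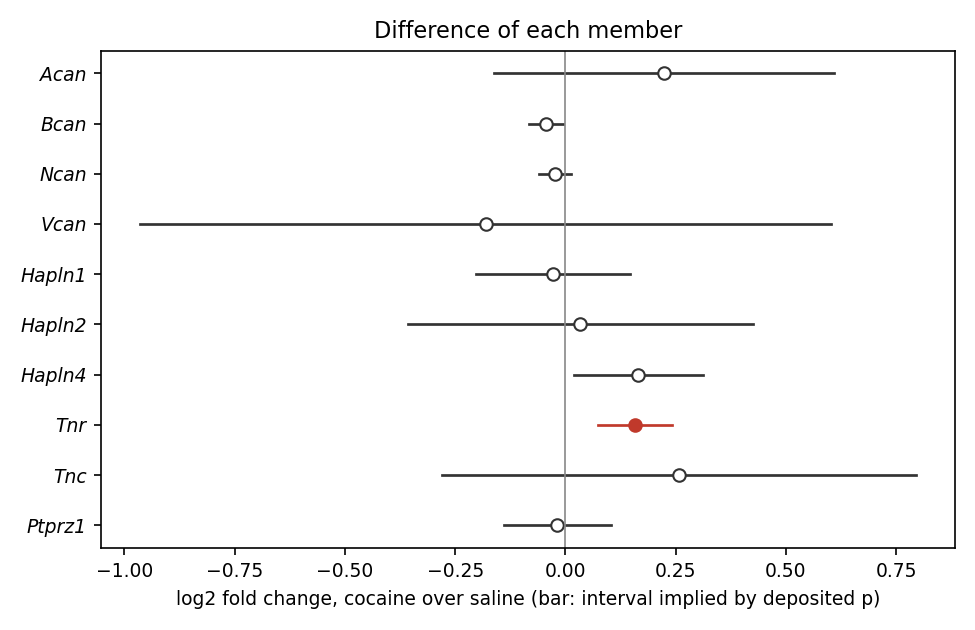
Log2 fold change, cocaine over saline, of each gene from the authors' deposited table. Bars are implied 95% intervals from the deposited p-value under a normal form, and the filled red point is the gene with q under 0.05. Tnr lies at 0.16 with a bar of 0.07 to 0.24, Hapln4 at 0.17 with a longer bar, and Vcan at -0.18 with the longest.

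The tenascins gave the single call. Tnr (tenascin-R) is made by cells of the oligodendrocyte lineage and some interneurons, and crosslinks lecticans in nets and around nodes. It rose to 16.2 FPKM in cocaine mice, against 14.5 FPKM in saline mice. Its implied interval of 0.07 to 0.24 corresponds to 1.05 to 1.18 times the saline level. Its p-value was the 160th smallest of all tested records. The deposited q of 0.0262 is larger than the 0.0210 that Benjamini-Hochberg adjustment over the 14959 tested records gives, and Tnr passes by either. Tnc (tenascin-C), a tenascin of development, injury and the germinal zones, was at 0.530 FPKM after cocaine and 0.444 FPKM after saline. Its log2 fold change of 0.26 was larger than that of Tnr, but at this level the implied interval ran from -0.28 to 0.79 (the authors' deposited p = 0.347), and with 1 FPKM added the value was 0.08. Whether Tnr differed from Tnc or from any lectican in its response was not tested. Relative to the lecticans, Tnr and Tnc summed to 12.6% of their FPKM after cocaine and 10.9% after saline. Tnr made up 96.8% of the tenascin sum after cocaine and 97.0% after saline, so Tnc adds little to this ratio.

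Fold changes in this table drift with the GC content and length of the transcript, and several matrix genes have long transcripts. The longest Tnr transcript in GENCODE mouse release 21 has 12202 bases and a GC content of 47.7%, and genes in its cell of 10 GC by 10 length classes had a median log2 fold change of 0.03. With that trend removed Tnr stood at 0.12, and centred on the median of tested records of at least 1 FPKM it stood at 0.18. Bcan (GC content 60.7%) and Ncan (55.1%) turned to 0.03 and 0.02 with the trend removed, so the direction of these small differences is not fixed. Hapln4 moved to 0.21 and Vcan to -0.23 under the same step. Acan and Tnc, below 1 FPKM, have no value there.

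**Figure D3:**
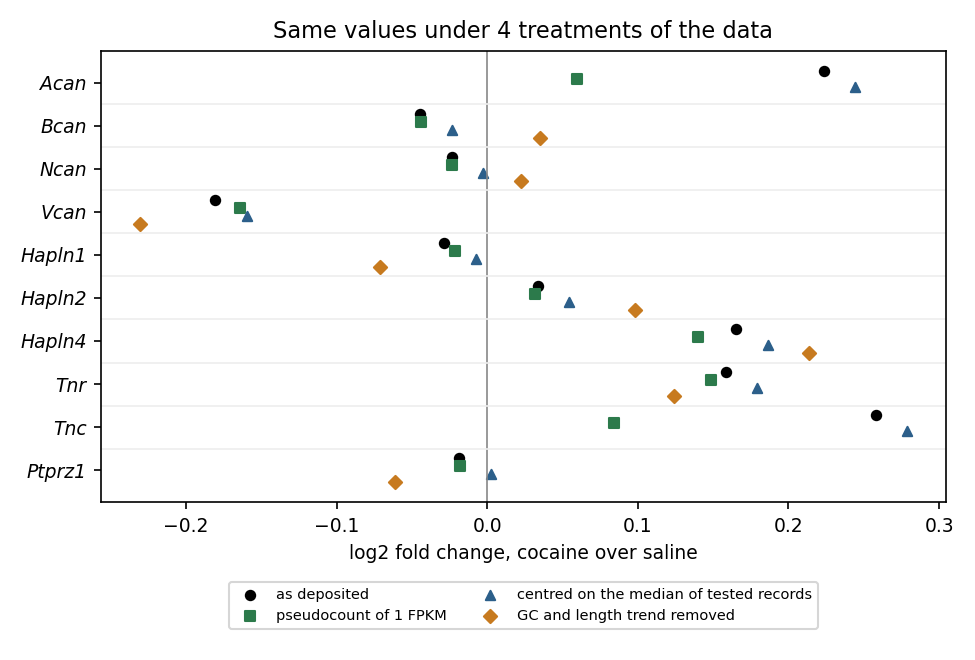
Log2 fold change, cocaine over saline, of each gene under 4 treatments of the same values, which are the deposited value, a pseudocount of 1 FPKM, centring on the median of tested records of at least 1 FPKM, and removal of the GC and length trend. Tnr stays between 0.12 and 0.18, Bcan and Ncan lie on both sides of 0, and Acan and Tnc shrink to 0.06 and 0.08 with the pseudocount.

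Ptprz1 is a receptor-type tyrosine phosphatase of astrocytes and oligodendrocyte precursors, whose secreted splice form, phosphacan, is itself a chondroitin sulfate proteoglycan of the net. It was at 26.3 FPKM after cocaine and 26.7 FPKM after saline (log2 fold change -0.02, implied interval -0.14 to 0.10, the authors' deposited p = 0.762). After centring on the median of tested records of at least 1 FPKM it was 0.00223. Its ligand pleiotrophin (Ptn), at 194 FPKM in each group, and its neuronal binding partner contactin-1 (Cntn1), at 68.2 FPKM after cocaine and 66.1 FPKM after saline, did not pass either (the authors' deposited p was 0.891 for Ptn and 0.114 for Cntn1).

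Precision differed widely among these genes. The implied standard error ran from 0.018 for Ncan to 0.40 for Vcan on the log2 scale, a 21.8-fold range. Among tested records of 20 to 100 FPKM its median was 0.081, and only 0.366% of them had a smaller value than Ncan and 0.761% a smaller value than Bcan. Among records of 5 to 20 FPKM the median was 0.12. Tnr, at 0.043, had a smaller value than all but 3.45% of these, whereas 97.6% had a smaller value than Vcan and 79.6% a smaller value than Hapln2. Tnr, which passed, and Vcan, which did not, thus had fold changes of like size (0.16 and -0.18) and implied standard errors of 0.043 and 0.40. Vcan has 8 protein-coding transcripts in the annotation, from 294 to 12427 bases, against 4 for Tnr and 1 each for Ncan and the link proteins, and Bcan has 2. Whether the number of transcripts bears on the implied error was not tested. Level times the longest transcript gives a rough index of fragments behind each value (FPKM times kilobases), 2.89 for Acan and 3.77 for Tnc after cocaine, next to 198 for Tnr and 310 for Ncan. It rests on an annotation later than that of the authors.

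**Figure D4:**
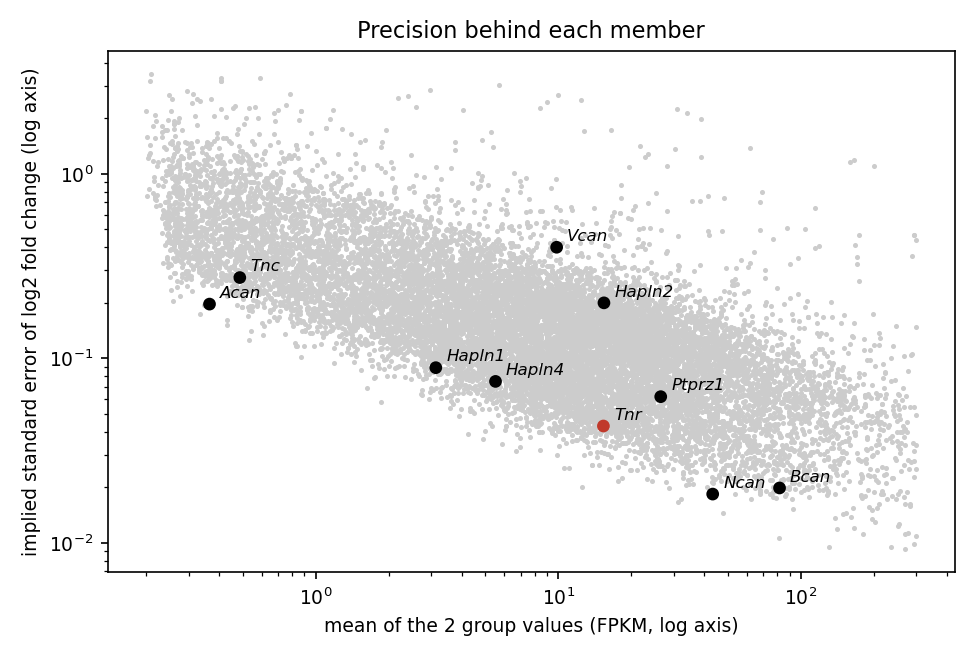
Implied standard error of the log2 fold change against the mean of both group values, on log axes, for tested records (grey) and the 10 genes (labelled, Tnr in red). Ncan, Bcan and Tnr lie along the lower edge of the grey cloud, at 0.018, 0.020 and 0.043, and Vcan near its upper edge, at 0.40.

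The enzymes, receptors and proteases that build, read and cut the lattice were counted in 7 lists of 161 genes, of which 145 were tested and 118 of those had 1 FPKM or more in either group. By the authors' deposited q-values 1 of these rose, 5 fell and 112 did not pass. Over all tested records that reach this level, 0.601% passed as higher and 0.816% as lower. None of the list of Hapln3, Tnxb and Tnn, the remaining link protein and tenascins, reached that level. The median log2 fold change of the 118 genes was -0.03, against -0.02 for tested records of at least 1 FPKM. These lists were made with earlier results of these data known, so the counts describe the genes and support nothing on their own.

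Among other proteoglycans of the brain and their partners, 12 genes entered, and 1 rose and 2 fell. Cspg5 (neuroglycan C), a transmembrane chondroitin sulfate proteoglycan, fell to 64.4 FPKM in cocaine mice, against 70.7 FPKM in saline mice (log2 fold change -0.13, the authors' deposited q = 2.15e-08). App, the amyloid precursor protein, which can carry a chondroitin sulfate chain in some splice forms, fell by 0.06 on the log2 scale (464 FPKM after cocaine, 482 FPKM after saline, the authors' deposited q = 3.91e-05). Sparcl1 (hevin), an astrocytic matricellular protein and not a proteoglycan, rose by 0.08 (284 FPKM after cocaine, 269 FPKM after saline, the authors' deposited q = 5.39e-09). Cspg4 (NG2), the proteoglycan of oligodendrocyte precursors, was at 3.57 FPKM after cocaine and 3.68 FPKM after saline (the authors' deposited p = 0.461). The list median was -0.06.

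Hyaluronan, the backbone, is made at the cell surface by the synthases Has1, Has2 and Has3, in part from sugars that Ugdh provides. None of 9 genes that entered passed, 0 had an unadjusted p under 0.05, and the median was -0.10. Ugdh was at 13.0 FPKM after cocaine and 16.6 FPKM after saline (log2 fold change -0.36, the authors' deposited p = 0.0675), Has3 at 3.57 FPKM after cocaine and 3.93 FPKM after saline (p = 0.395), and the hyaluronidase Hyal2 at 3.67 FPKM after cocaine and 4.18 FPKM after saline (p = 0.125). Of the 9 genes 3 were above 0. The largest log2 fold change was 0.91, that of the hyaluronidase Hyal1. It was at 3.13 FPKM after cocaine and 1.67 FPKM after saline (the authors' deposited p = 0.731). Has2 was marked as not tested, at 0.0987 FPKM after cocaine and 0.105 FPKM after saline. None of 26 genes for making, sulfating and degrading chondroitin sulfate chains passed either, 1 was lower at an unadjusted p under 0.05, and all 26 lay between -0.17 and 0.07. The most abundant of the 26 was B3gat3, which completes the linker to the core protein (38.8 FPKM after cocaine, 40.1 FPKM after saline, the authors' deposited p = 0.265).

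Of 22 proteases and inhibitors, 1 fell and 21 did not pass. Prss12 (neurotrypsin), which cleaves the matrix proteoglycan agrin at synapses, fell to 1.39 FPKM in cocaine mice, against 2.43 FPKM in saline mice (log2 fold change -0.80, the authors' deposited q = 7.99e-05, and -0.52 with 1 FPKM added). Agrin itself (Agrn) was at 38.6 FPKM after cocaine and 39.1 FPKM after saline (the authors' deposited p = 0.710). The aggrecanases, which cut brevican and aggrecan, did not pass, with Adamts4 at 7.85 FPKM after cocaine and 8.36 FPKM after saline (the authors' deposited p = 0.333) and Adamts5 at 0.591 FPKM after cocaine and 0.613 FPKM after saline (p = 0.741). The most abundant inhibitors were Timp2 (99.5 FPKM after cocaine, 108 FPKM after saline, the authors' deposited p = 0.00614, q = 0.331) and Serpine2 (86.7 FPKM after cocaine, 87.9 FPKM after saline, p = 0.458).

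Of 34 receptors and ligands of the net, 1 fell and 33 did not pass. Ptprs, a neuronal receptor phosphatase that binds chondroitin sulfate and halts axon growth on it, fell to 97.6 FPKM in cocaine mice, against 105 FPKM in saline mice (log2 fold change -0.11, the authors' deposited q = 0.0335). With the GC and length trend removed its value was -0.07. Ncam1, a cell adhesion molecule that binds neurocan, was at 147 FPKM after cocaine and 165 FPKM after saline (log2 fold change -0.17, the authors' deposited p = 0.112). Of 17 other matrix glycoproteins, Sparcl1 again was the only rise and Thbs4, a secreted thrombospondin, the only fall. Thbs4 was at 0.386 FPKM after cocaine and 1.10 FPKM after saline (log2 fold change -1.51, the authors' deposited q = 2.46e-07), or -0.60 with 1 FPKM added.

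**Figure D5:**
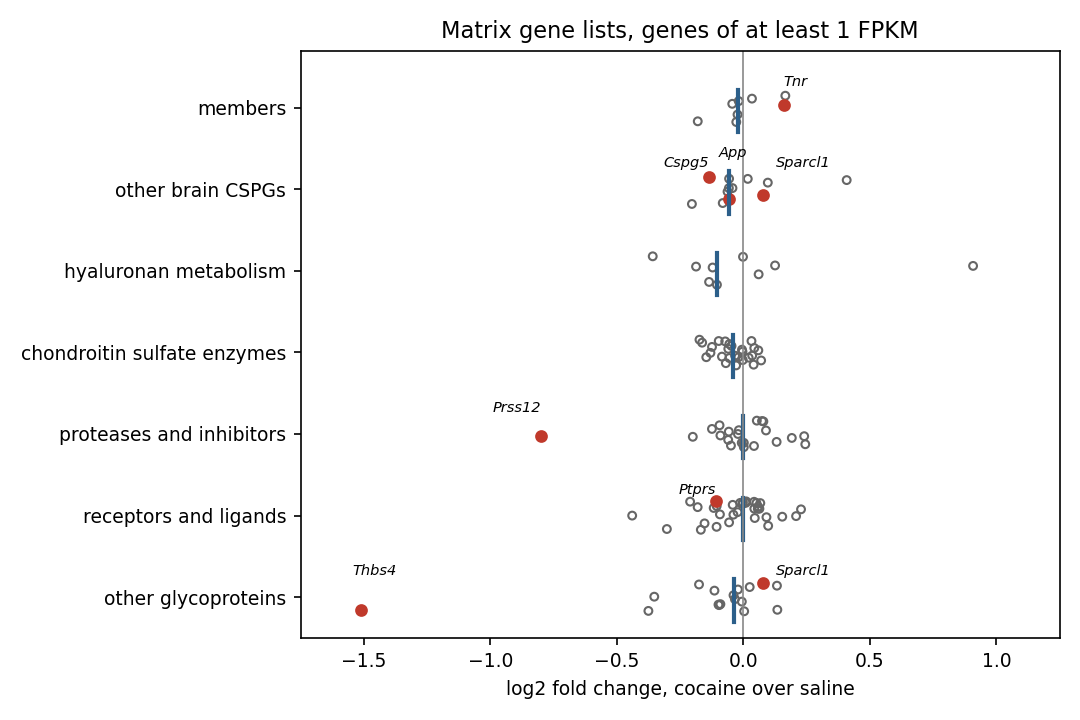
Log2 fold change, cocaine over saline, of each gene with 1 FPKM or more in either group, for the 8 of the 10 genes that reach it (top row) and 6 lists of other matrix genes. Filled red points passed the deposited q under 0.05 and are named, open points did not, and the blue bar is the median. Most genes lie close to 0, and Thbs4 at -1.51 and Prss12 at -0.80 lie apart from the rest.

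The cell types that make these matrix genes were checked with marker lists. Medium spiny neuron genes, the defining markers of the region, were abundant, with 12 of 12 detected, 0 called (4 lower before adjustment) and a summed 3820 FPKM after cocaine and 3910 FPKM after saline. Markers of mature oligodendrocytes, which make Hapln2, gave 0 calls among 12 by the deposited q (2 higher at an unadjusted p under 0.05). Their median was -0.02, and they summed to 3053 FPKM after cocaine and 3018 FPKM after saline. Which stage of the oligodendrocyte lineage the Tnr value comes from was not tested. Oligodendrocyte precursor markers, which go with Vcan and Ptprz1, gave 0 calls among 12 (1 higher before adjustment), a median of -0.02 and 179 FPKM after cocaine and 180 FPKM after saline. Astrocyte markers gave 0 calls among 12 (3 higher and 1 lower before adjustment), a median of 0.03 and 1684 FPKM after cocaine and 1610 FPKM after saline. Of these 12, 8 were above and 4 below 0. The largest log2 fold change was that of Slc1a2 (453 FPKM after cocaine, 377 FPKM after saline, the authors' deposited q = 0.968), so the summed value leans on that gene. Markers of parvalbumin interneurons, the usual bearers of nets, gave 0 calls among 11 (1 higher before adjustment) and a median of 0.07. Pvalb was at 4.35 FPKM after cocaine and 3.30 FPKM after saline (log2 fold change 0.40, the authors' deposited p = 0.161), though several of that list, such as Gad1 and Tac1, are also expressed by medium spiny neurons. Microglial markers gave 0 calls among 10 (0 before adjustment) and a median of 0.03.

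Calls were made in 3 other marker lists, none of which was tested as a list. All 12 endothelial and mural markers were below 0, with a median log2 fold change of -0.23, a summed 57.5 FPKM after cocaine and 66.8 FPKM after saline, and 1 fall, Cldn5 (the authors' deposited q = 0.00123). Of 7 immature neuron markers, 3 fell (Ccnd2, Sox11 and Cd24a) and 4 did not pass, with a median of -0.39. Of 3 choroid plexus markers that entered, Ttr rose to 10.8 FPKM in cocaine mice, against 0.668 FPKM in saline mice, while Kl and Clic6 did not pass and had log2 fold changes of -0.04 and -0.18. The other 5 markers of that list were below 1 FPKM and had higher values after cocaine, and none of those tested passed. Kcnj13 was at 0.581 FPKM after cocaine and 0.0658 FPKM after saline (the authors' deposited p = 0.0890). Folr1 was at 0.618 FPKM after cocaine and 0.234 FPKM after saline (the authors' deposited p = 0.490). Aqp1 and Slc4a5 were marked as not tested. Fibroblast and meningeal markers gave 0 calls among 6 (1 lower before adjustment) and a median of -0.15. No tested marker of any list was at 0. Their part in the values of Tnr and the other matrix genes was not tested. Mitochondrially encoded mRNAs held 8.15% of summed FPKM after cocaine and 6.74% after saline, and rescaling both groups without them left Tnr at 0.16.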

How the data were processed

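Nucleus accumbens RNA of 3 cocaine and 3 saline libraries was sequenced by the authors. Per the submitters' processing notes TopHat2 2.0.6, Cufflinks 2.0.2 and the build NCBIM37 were used. The sources used here name no annotation, program settings or strand handling. The deposited table has the layout of a Cuffdiff gene table per the file headers, and its group values were taken as FPKM made by the authors, with 1 per group, although the file does not name the unit. The log2 fold change, p-value and q-value were deposited by the authors and copied.

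Genes were called at q under 0.05 among tested records. A symbol with several records entered its list by the most abundant, at 1 FPKM or more in either group. Implied standard errors, Benjamini-Hochberg adjustment and the removal of the median of 10 GC by 10 length classes (GENCODE mouse release 21, 97.3% of records of at least 1 FPKM matched) were computed in Python 3.11.15 with scipy 1.17.1 and tested on simulated data. That annotation is of a later build, so no coordinates are printed. No value per library could be tested. The planned test by limma, leaving out replicates and the replicate block were not run. Named genes were the 10 matrix genes, the called genes of each list, its 2 most abundant genes and a fixed few. One gene that this rule names is not reported here, and Hyal1, Kl, Clic6, Kcnj13 and Folr1 were named after their values were seen. The members and lists were chosen with earlier results of these data known.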

Additional observations from a re-analysis of the deposited data

How the results depend on the processing

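Tnr kept its direction with pseudocounts of 1 and 0.1 FPKM, rescaling without mitochondrially encoded records, centring, and removal of the GC and length trend. These steps give no new p, so whether its call would hold under them was not tested. A pseudocount added to both groups cannot change a sign. With adjustment over records of at least 1 FPKM Tnr kept its call (adjusted p = 0.0183 by Benjamini-Hochberg from the deposited p). A q under 0.1 is a looser threshold, which any called gene passes. At an unadjusted p under 0.05, calls among the 10 genes went to 2 higher and 1 lower, where the deposited q gave 1 and 0. The same step gave 6 higher and 14 lower of the 118 matrix list genes and 302 higher and 559 lower of all tested records (78 and 106 by q). With 1 FPKM added, the log2 ratio to lecticans, cocaine over saline, was 0.10 for link proteins, 0.20 for tenascins and 0.0285 for Ptprz1. Without it the values were 0.10, 0.21 and 0.0282. The tenascin sum is mostly Tnr, and none of these ratios has an error. The sign changed for Bcan and Ncan with the trend removed and for Ptprz1 with centring, none of them called. Read depth is unknown, so what it limits could not be assessed. No paired analysis was possible because the table holds no value per library, and for the same reason no replicate could be left out.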
